A study of Mus musculus with 9 samples.

Results

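The Ikaros-type zinc-finger genes Ikzf1, Ikzf2, Ikzf3 and Ikzf5, the related lymphoid zinc-finger gene Bcl11a and the E-protein genes Tcf3, Tcf4 and Tcf12 were followed by their gene names through RNA-seq of mouse leukemia clones. These 8 genes were picked by name from 55401 genes listed, with earlier results of the same data known, so their levels are given as a description and without a p-value. All 8 had reads in every library and passed the filter on low values in each comparison.

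Ikaros proteins bind DNA through zinc fingers near the start of the protein, pair with one another through zinc fingers near its end, and recruit chromatin-remodelling complexes such as NuRD. They are best known as regulators of lymphoid development, and loss of Ikaros is a recurrent lesion in lymphoid leukemia. E-proteins are basic helix-loop-helix factors that bind the E-box letters CANNTG as dimers. Id proteins lack the DNA-binding basic region and hold E-proteins in inactive dimers.

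The comparison asked how transcription differed between clones before leukemia, the same clones after expansion, and a clone that had expanded stably. All cells descended from lineage-negative bone marrow of C57BL/6-Ly5.1 mice carrying the CD45.1 allele. They carried a gammaretroviral vector for Hoxa9 and Meis1 with puromycin resistance and lentiviral color-code vectors (FGB-D). Lethally irradiated C57Bl6/J mice were the recipients, and the RNA came from thawed spleen cells sorted for each clone's color code among CD45.1+ cells with bright EGFRt, the vector's surface tag, that were cKit+ and dim or negative for CD11b. In the pre-malignant group, 3 clones (33BC-D, then 38BC-D, then 43BC-D) came from mouse #15, killed 4 weeks after transplantation. Those clones at the leukemic endpoint made up the de novo expanded group, with 38BC-D from mouse #13, 43BC-D from mouse #14 and 33BC-D from mouse #17. Clone 34BC-D at the endpoint formed the stably expanded group, from mice #13, #14 and #17. Each group had 3 libraries. Every pre-malignant library came from the same mouse, and every stably expanded library from the same clone, so mouse, clone, time and group cannot be told apart there. The value columns name the group but not the clone or mouse, and the libraries are numbered 1 to 3 in column order within a group. Equal numbers in different groups were not taken as pairs, since the column names give no clone or mouse. The p-values measure only the spread between these libraries.

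The libraries held 10379739 to 15551196 reads on genes. The sort markers were present in all of them, with 1700 to 4190 reads of Kit and 333 to 1313 reads of Itgam, and all 10 genes of a leukemic progenitor list, Hoxa9, Meis1 and Mpo among them, had more than 3 reads in every library. De novo expanded library 3 stood apart from the other 2 of its group. Between de novo expanded and pre-malignant libraries 0 of 14195 genes were called with all libraries and 214 without library 3, while stably against de novo expanded gave 1 call among 13758 genes with all libraries and 508 without library 3. A gene was called where its adjusted p was under 0.05 and its fold change at least 2. Results that rest on this library are given with and without it. In bulk RNA, fewer cells of a type and less RNA per cell cannot be told apart.

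Ikaros-type members resemble one another in a zinc finger near the end of the protein, the region through which they pair. Of the matches to the C2H2 zinc-finger pattern in the coding sequences of Ikzf1, Ikzf2 and Ikzf5, the one with the highest summed identity to Ikzf1 is printed because it shows the likeness of the family, with the bases that are the same in all 3 in capitals (38 of 63). The letters are those of GENCODE transcripts on NCBIM37, read along the coding strand.
Ikzf1: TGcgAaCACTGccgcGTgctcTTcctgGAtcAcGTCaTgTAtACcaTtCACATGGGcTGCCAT
Ikzf2: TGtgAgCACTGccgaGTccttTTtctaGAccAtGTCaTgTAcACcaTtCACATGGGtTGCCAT
Ikzf5: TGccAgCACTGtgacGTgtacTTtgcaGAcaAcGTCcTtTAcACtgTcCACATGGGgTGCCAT
They lay at coding bases 1450 to 1512 of Ikzf1, 1417 to 1479 of Ikzf2 and 1096 to 1158 of Ikzf5. Against Ikzf1, the finger was 82.5% identical in Ikzf2 and 68.3% in Ikzf5. Likeness of sequence raises the question of shared reads, and the longest exact run that any 2 of the 8 coding sequences had in common was 26 bases, between Ikzf1 and Ikzf3. Untranslated parts were not compared.

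Of the E-proteins, Tcf3 and Tcf12 are shown by their most similar window of 90 coding bases. How far it falls within the helix-loop-helix domain was not checked. Capitals mark the 75 bases that are identical, and the source is the same. The window covers coding bases 1759 to 1848 of Tcf3 and 1918 to 2007 of Tcf12.
Tcf3: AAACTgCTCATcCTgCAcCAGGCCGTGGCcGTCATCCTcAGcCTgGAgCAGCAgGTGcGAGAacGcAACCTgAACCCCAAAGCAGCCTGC
Tcf12: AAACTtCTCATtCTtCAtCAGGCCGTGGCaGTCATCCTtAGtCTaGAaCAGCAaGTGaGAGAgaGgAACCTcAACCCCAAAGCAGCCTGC
Tcf3 and Tcf4 shared no run of coding bases longer than 23, and Tcf3 and Tcf12 none longer than 18.

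Levels were compared between genes as RPKM, reads scaled to exon length and to the library's reads on genes, computed from the recovered reads and the exon length in the tables. Ikzf1, which encodes Ikaros, had the highest level at 59.3 ± 8.14 RPKM (SD, n = 9), and it was above Tcf3 in 9 of 9 libraries although their ranges touched (46.5 to 69.1 against 31.4 to 50.2 RPKM). Tcf3, which encodes the E-protein E2A, averaged 38.2 ± 6.09 RPKM. Tcf12, which encodes HEB, followed at 7.32 ± 0.386 RPKM and Ikzf5, which encodes Pegasus, at 3.22 ± 0.361 RPKM, with no overlap between Tcf3, Tcf12 and Ikzf5. Tcf4, which encodes E2-2, averaged 2.43 ± 0.786 RPKM and was below Ikzf5 in 8 of 9 libraries. Ikzf3, which encodes Aiolos, averaged 1.03 ± 0.624 RPKM and was below Tcf4 in 8 of 9. Ikzf2, which encodes Helios, ranged from 0.0116 to 2.37 RPKM and Bcl11a from 0.0347 to 0.405 RPKM, and their order changed from library to library, with Ikzf2 above Bcl11a in only 3 of 9. Over the exons of all isoforms joined, a long gene such as Tcf4 (27382 bases of exon) gives a lower RPKM than its main transcript would, so the order is that of gene models.

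**Figure D1:**
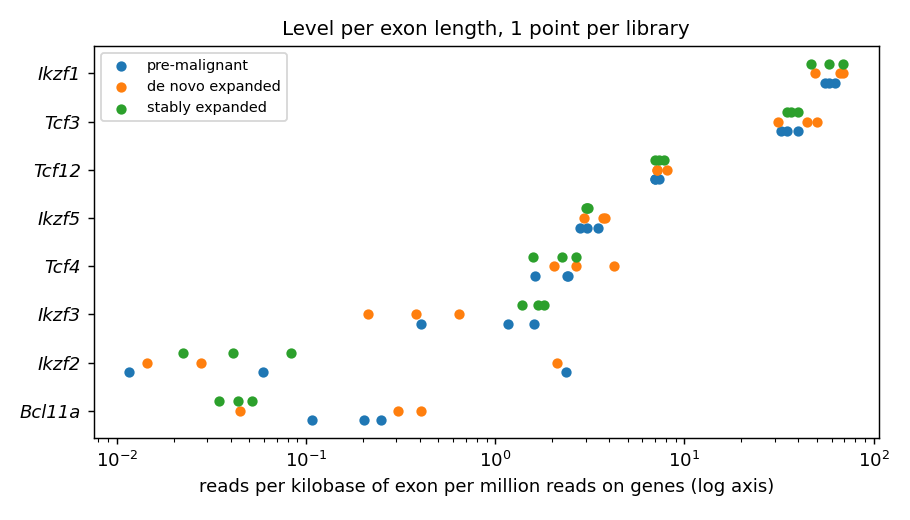
Level per exon length of the 8 genes, in RPKM on a log axis, with 1 point for each of the 9 libraries, colored by group. Ikzf1 lies highest (46.5 to 69.1), Tcf12 forms the tightest row (6.96 to 8.08), and Ikzf2 splits into 2 libraries above 2 and 7 libraries below 0.1.

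The members also differed in how steady they were. On counts normalized over all 9 libraries, called normalized counts from here on, the coefficient of variation was 5.26% for Tcf12, 10.7% for Ikzf5, 12.7% for Ikzf1, 15.6% for Tcf3 and 31.9% for Tcf4. It was 61.1% for Ikzf3, 84.6% for Bcl11a and 185% for Ikzf2. The 3 members of lowest RPKM were thus the 3 that varied most.

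**Figure D2:**
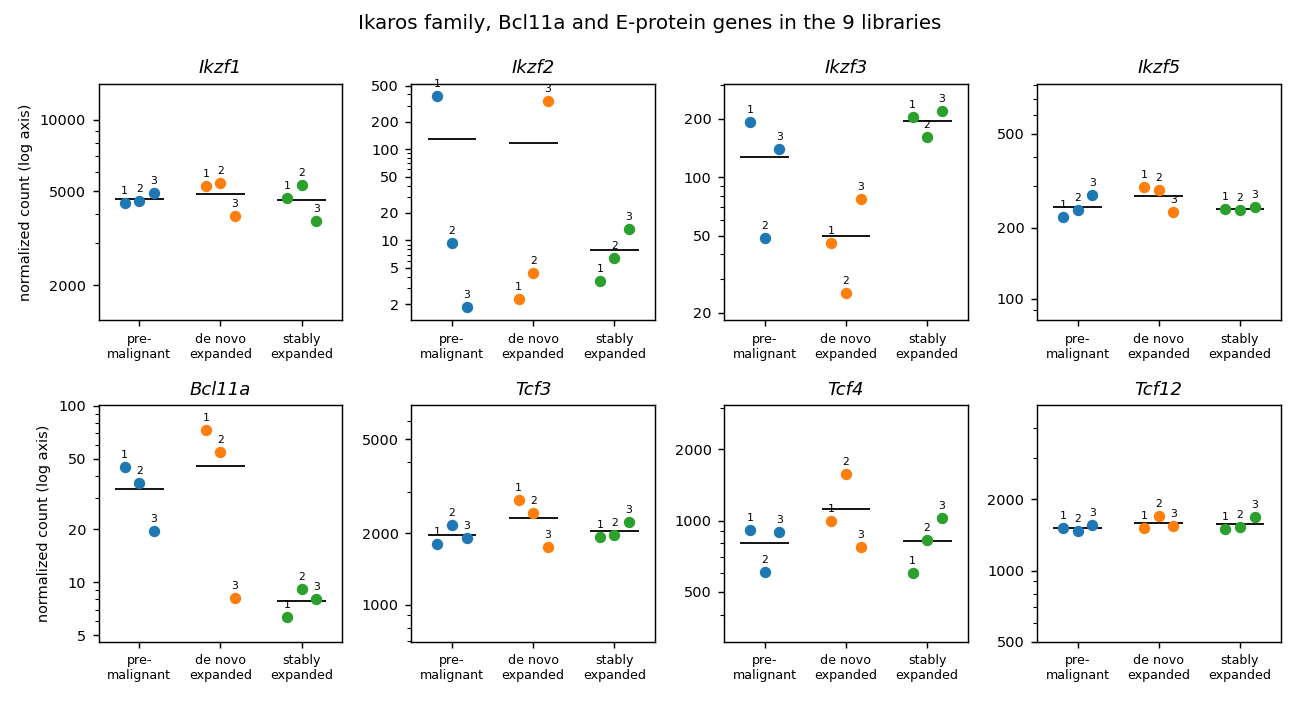
Normalized counts of the 8 genes by library (log axis, each panel with its own range of at least 10-fold), with points numbered by library within a group and a line at the group mean. Ikzf2 is high only in pre-malignant library 1 and de novo expanded library 3, Ikzf3 is highest in the stably expanded group, and Bcl11a is at 6.33 to 9.18 in that group.

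Helios had the most uneven pattern of the 8. Ikzf2 (ENSMUSG00000025997.13, GRCm38 chr1:69531214-69687245, minus strand) had 362, 10 and 2 reads in pre-malignant libraries 1 to 3, against 2, 5 and 379 in the de novo expanded and 4, 7 and 10 in the stably expanded group. On normalized counts, pre-malignant library 1 stood at 380.3 and de novo expanded library 3 at 341.8, while the other 7 libraries lay between 1.85 and 13.4. The lower of the 2 high libraries was 25.5-fold above the highest of the 7 low ones. Each high library was thus 1 of 3 in its group, and no stably expanded library was high.

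The split matched neither the groups nor the depth. The 2 high libraries had 13178692 and 15311840 reads on genes, within the range of the others. Whether they hold the same clone is not given by the column names. Among 13960 genes averaging at least 10 normalized counts, Ikzf2 was the only gene at least 10-fold higher in exactly this pair of libraries than in each of the other 7. Of the 9 possible pairs of a pre-malignant with a de novo expanded library, 1 other pair had such a gene, Gm48722, and the remaining 7 had none. This count was set up after the pattern of Ikzf2 was seen and carries no test.

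Models inside Ikzf2 shared its pattern, and the genes around it had few reads. Gm28112, an unnamed gene model inside Ikzf2 on the same strand, had 28 reads in pre-malignant library 1, 7 in de novo expanded library 3 and 0 elsewhere. Gm29112, another model within it on that strand, had 18 and 28 reads in these libraries and at most 3 elsewhere. Reads in an overlap on 1 strand can belong to either gene. Within 1000000 bases on each side, Erbb4, a receptor tyrosine kinase gene, had at most 14 reads in a library, and Spag16, a sperm flagellum gene, had at most 5.

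**Figure D3:**
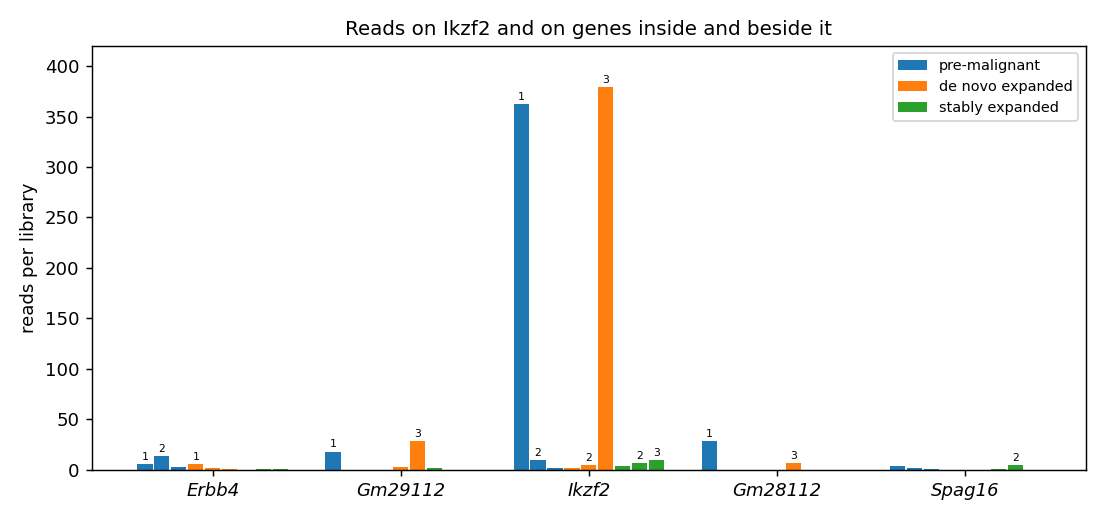
Reads per library on Ikzf2, on 2 gene models inside it (Gm29112, Gm28112) and on the flanking genes Erbb4 and Spag16, with 9 bars a gene colored by group and bars of at least 5 reads numbered by library. Ikzf2 reaches 362 reads in pre-malignant library 1 and 379 in de novo expanded library 3 and at most 10 in the other 7 libraries.

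Because of this split, group differences of Ikzf2 carried wide errors. On the log2(normalized count + 1) scale, within each comparison's own table, the difference was -0.28 ± 2.23 (SE, n = 3 and 3) for de novo expanded over pre-malignant, -1.50 ± 1.40 for stably expanded over pre-malignant and -1.20 ± 1.66 for stably over de novo expanded. By DESeq2, which adds no 1 to the counts, the stably expanded libraries differed by -4.07 from pre-malignant and by -3.90 from de novo expanded libraries, beyond any difference of Ikzf3 on the scale used here. By limma, all 3 changed sign when certain libraries were left out, with ranges of -2.41 to 1.77, -2.98 to 0.55 and -2.44 to 0.92.

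The genes most like Ikzf2 over the 9 libraries were searched by the root mean square distance of centred log2 normalized counts, among 10334 genes with a mean of at least 50. This search was added after the values were seen. Zeb1, a zinc-finger repressor known from epithelial-to-mesenchymal transition, was nearest at a distance of 1.33, with 97.7 normalized counts in pre-malignant library 1, 251.6 in de novo expanded library 3 and 5.43 to 32.2 in the others. Gm7638 followed at 1.49 and Zfp507, a zinc-finger gene, at 1.61. All 3 were higher in the same pair of libraries, and none was at least 10-fold above each of the other 7 in both.

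On the log2(normalized count + 1) scale, Aiolos showed the largest difference between groups. Ikzf3 (ENSMUSG00000018168.8, GRCm38 chr11:98464902-98546031, minus strand) had 193.3, 48.4 and 140.4 normalized counts in the pre-malignant group, against 45.6, 25.3 and 77.6 in the de novo expanded and 204.5, 161.6 and 220.3 in the stably expanded group. Every stably expanded library was above every de novo expanded one, while the pre-malignant libraries overlapped both other groups. The difference was 2.09 ± 0.40 on the log2 scale (SE, n = 3 and 3) for stably over de novo expanded, 0.82 ± 0.42 for stably expanded over pre-malignant and -1.25 ± 0.59 for de novo expanded over pre-malignant. Leaving out any 1 library kept the direction in all 3 comparisons, with 1.69 to 2.48, 0.23 to 1.22 and -1.84 to -0.85. Ikzf3 was not called in any of them. Stably over de novo expanded, it was called without de novo expanded library 3 and by DESeq2, and by no other setting tried.

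In pre-malignant as in de novo expanded samples, the library with the most Ikzf2 also had the most Ikzf3, 193.3 and 77.6 normalized counts. The stably expanded libraries combined the highest mean of Ikzf3 (195.5 ± 30.4, SD, n = 3) with Ikzf2 at 3.62 to 13.4. By the rule of nearest pattern, 3 of 10334 genes were named for Ikzf3, the member with the largest difference between groups. Junos was nearest at a distance of 0.610, then Ttll1, a tubulin-modifying enzyme gene, at 0.648, and Atp1b1, a subunit of the sodium pump, at 0.669. Atp1b1 had 181.8 to 344.7 normalized counts in the stably expanded libraries and 94.6 to 289.5 in the de novo expanded ones.

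Ikaros itself and Pegasus overlapped between all groups. Ikzf1 (ENSMUSG00000018654.17, GRCm38 chr11:11685003-11772926, plus strand) had 4428, 4539 and 4904 normalized counts in the pre-malignant group, against 5253, 5413 and 3928 in the de novo expanded and 4677, 5316 and 3742 in the stably expanded group. The lowest values were those of de novo expanded library 3 and stably expanded library 3, and all groups overlapped. The log2 differences were 0.08 ± 0.13 for de novo expanded over pre-malignant, -0.03 ± 0.12 for stably expanded over pre-malignant and -0.09 ± 0.17 for stably over de novo expanded (SE, n = 3 and 3). Ikzf5 (ENSMUSG00000040167.16, GRCm38 chr7:131388652-131410521, minus strand) had 221.7 to 274.3 normalized counts in the pre-malignant, 232.7 to 298.6 in the de novo expanded and 237.8 to 244.4 in the stably expanded group. Its log2 differences lay between -0.17 and 0.17, with errors of 0.16 to 0.17. Pstk, which overlaps Ikzf5 on the other strand, had 63 to 158 reads in a library, and whether the counting used strand is not given in the sources used here.

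Relatives outside the 8 were close to silent. Ikzf4, which encodes Eos, had 9 reads in de novo expanded library 1 and at most 1 in the others. Bcl11b, the T-lineage relative of Bcl11a, had 2 to 13 reads. Neither passed the filter on low values.

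Bcl11a was the only member called in a comparison, and nothing is read from that call. Bcl11a (ENSMUSG00000000861.15, GRCm38 chr11:24078056-24174123, plus strand) encodes a zinc-finger repressor needed in B-cell and plasmacytoid dendritic cell development and known for silencing fetal globin genes. It had 45.2, 36.3 and 19.4 normalized counts in the pre-malignant group, against 72.9, 54.9 and 8.12 in the de novo expanded and 6.33, 9.18 and 8.06 in the stably expanded group. In reads, these were 43, 39 and 21, then 64, 63 and 9, then 7, 10 and 6. The stably expanded libraries were all below the pre-malignant ones, and de novo expanded library 3 lay at their level while the other 2 of its group were the highest of all.

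The promoter of this gene is shown as that of the member called. The window of 300 bases spans the RefSeq start, at chr11:24080445-24080744 of GRCm38.p6, plus strand. Capitals mark matches to CANNTG, the E-box letters, and to GGGAA, the core letters of Ikaros sites, or its reverse complement TTCCC, searched on both strands.
Bcl11a: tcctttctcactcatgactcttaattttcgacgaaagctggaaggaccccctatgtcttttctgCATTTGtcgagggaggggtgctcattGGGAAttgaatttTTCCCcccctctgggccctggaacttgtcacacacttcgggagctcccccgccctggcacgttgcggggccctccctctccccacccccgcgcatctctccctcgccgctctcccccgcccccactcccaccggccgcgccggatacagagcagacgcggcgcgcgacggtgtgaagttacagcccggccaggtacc
It holds 1 E-box match and 2 GGGAA matches. Of 32851 promoter windows of this length, 72.3% hold at least 1 CANNTG and 62.7% at least 1 GGGAA. Of the other members, Ikzf1, Ikzf5, Tcf3 and Tcf12 had windows in the same table, and the GGGAA letters were in 1 of 2 windows of Ikzf1, in that of Ikzf5 and in none of Tcf3 or Tcf12. A match of letters is not evidence of binding.

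Stably expanded over pre-malignant, the log2 difference of Bcl11a was -1.90 ± 0.49 (SE, n = 3 and 3), and it was the 1 of 8 members called, where 2.75% of all 13968 genes tested were (1.55% lower). It was also the 1 member whose groups did not overlap, where 30.7% of all genes did not (14.6% with the stably expanded group lower). The members were chosen with this contrast known. Bcl11a also passed the filter on low values there only through the pre-malignant group. Its mean was 33.3 in that group and 7.78 in the stably expanded one, normalized within this comparison, where the filter asked for at least 10. This favors a lower direction, so nothing is read from these counts or from the call. The direction held in every setting tried, at -2.10 to -1.53 under other settings and -2.24 to -1.65 with 1 library left out. The call was lost under quantile normalization, DESeq2 and 1 fit of all 9 libraries, and without any 1 of the 6 libraries, and at a mean of at least 50 the gene was not tested.

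Against de novo expanded, the stably expanded libraries were lower by a log2 difference of -1.93 ± 0.79 with overlap, and Bcl11a was called there only without de novo expanded library 3, at -2.87. De novo expanded over pre-malignant, the difference was 0.05 ± 0.79, and leaving out 1 library moved it between -0.52 and 0.99.

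The E-proteins overlapped between all groups. Tcf3 (ENSMUSG00000020167.14, GRCm38 chr10:80409514-80433647, minus strand), needed for B-lineage commitment, had 1813, 2180 and 1920 normalized counts in the pre-malignant group, against 2769, 2442 and 1752 in the de novo expanded and 1939, 1971 and 2232 in the stably expanded group. De novo expanded libraries 1 and 2 were the highest and library 3 the lowest of all 9. The log2 differences were 0.23 ± 0.17, 0.06 ± 0.10 and -0.16 ± 0.17, first de novo expanded over pre-malignant, next stably expanded over pre-malignant, and last stably over de novo expanded (SE, n = 3 and 3).

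Tcf4 (ENSMUSG00000053477.17), the E-protein that specifies plasmacytoid dendritic cells, had 914.0, 605.7 and 892.9 normalized counts in the pre-malignant group, against 998.3, 1574 and 774.7 in the de novo expanded and 599.0, 829.1 and 1022 in the stably expanded group. De novo expanded library 2 was the highest and all groups overlapped. In the same order, its log2 differences were 0.45 ± 0.28, 0.01 ± 0.21 and -0.42 ± 0.29.

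Tcf12 (ENSMUSG00000032228.16, GRCm38 chr9:71842688-72111871, minus strand), which acts in T-cell development, was the steadiest member. Its 9 libraries lay between 1469 and 1702 normalized counts, a 1.16-fold range, and its log2 differences were 0.09 ± 0.09, 0.05 ± 0.09 and -0.01 ± 0.10. Even with 1 SE added, each difference of Tcf12, Tcf3, Tcf4, Ikzf1 and Ikzf5 stayed under 2-fold.

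**Figure D4:**
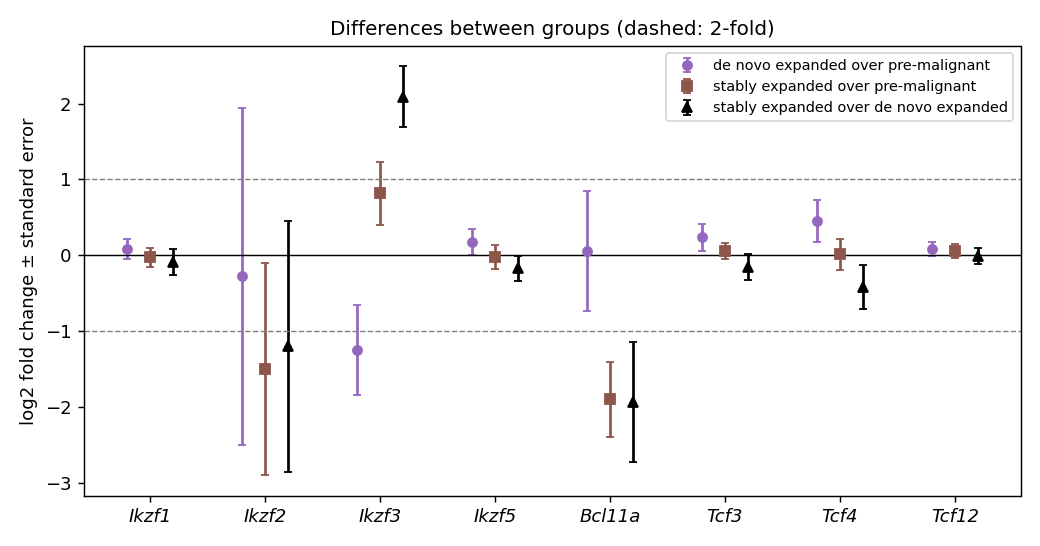
Log2 fold changes of the 8 genes in the 3 comparisons, on the log2(normalized count + 1) scale, with bars of 1 standard error (3 libraries in each group) and dashed lines at 2-fold. Ikzf3 reaches 2.09 for stably over de novo expanded, Bcl11a -1.90 for stably expanded over pre-malignant, Ikzf2 has errors of 1.40 to 2.23, and the other 5 genes lie between -0.42 and 0.45.

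Across the 8 members, the median log2 difference was 0.08 for de novo expanded over pre-malignant, beside 0.01 over all 14195 genes tested. No member was called there, where 0% of all genes were, and no member's groups failed to overlap, where 19.1% of all genes did not. Beside that count of 0 by limma, 1597 genes had an unadjusted p under 0.05, and DESeq2 called 42 genes and edgeR 0. Stably expanded over pre-malignant, the members' median was -0.00 beside 0.00 over all genes, with 4 members above 0 and 4 below. Stably over de novo expanded, it was -0.17 beside -0.00 over all genes, with 1 member above 0 and 7 below. No member was called in that comparison, where 0.00727% of all genes were, and Ikzf3 was the 1 member without overlap, where 9.61% of all genes had none (4.66% with the stably expanded group higher). Each pair of comparisons shares a group, so their values are not independent.

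The partners and targets of these factors were read from 6 lists with 72 genes, of which 55, 54 and 50 were tested in the 3 comparisons. Called were 0 genes de novo expanded over pre-malignant, 4 genes stably expanded over pre-malignant (1 higher and 3 lower, where 1.20% and 1.55% of all genes were) and 0 genes stably over de novo expanded. By limma, 10, 27 and 6 of these genes had an unadjusted p under 0.05 (18.2%, 50% and 12% of those tested). Of all genes tested, 11.3%, 25.4% and 4.83% did. The lists were chosen with earlier results of these data known, so nothing is read from these counts and shares.

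Among the Id inhibitors, Id2 was higher in the stably expanded than in the pre-malignant libraries and was the only one called. Id2, the antagonist of E-proteins required for natural killer and other innate lymphoid cells, had 80.9, 91.2 and 82.2 normalized counts in the pre-malignant group, against 68.4, 50.6 and 161.4 in the de novo expanded and 267.8, 246.1 and 153.1 in the stably expanded group. All stably expanded libraries were above all pre-malignant ones, and de novo expanded library 3 was within their range. The log2 difference from pre-malignant was 1.34 ± 0.24 (SE; limma, adjusted p = 0.0114). Id2 was lost as a call in 1 fit of all 9 libraries. Against de novo expanded libraries it was 1.38 ± 0.45 (limma, adjusted p = 0.891), and it was called only without de novo expanded library 3. Id1 had 43 to 172 reads and was not called in any comparison, Id3 had 1 to 5 reads before leukemia and 0 in the other 6 libraries, and Id4 had at most 3.

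Among the lymphoid factors and targets, 3 of 13 tested genes were called lower stably expanded over pre-malignant, where 1.55% of all genes tested were. None was called higher, and the list median was -1.26 beside 0.00 over all genes. Several of these genes, Pax5 and Ebf1 among them, passed the filter on low values only through the pre-malignant group. This favors a lower direction, so nothing is read from the count or the median, nor from the calls of Pax5 and Ebf1. Gfi1, a repressor in blood progenitors, passed the adjusted p and not the fold limit, at 0.85 ± 0.15 (SE; limma, adjusted p = 0.0102). Pax5, the B-lineage commitment factor, had 65.1, 41.9 and 24.0 normalized counts in the pre-malignant group, against 30.8, 9.59 and 22.5 in the de novo expanded and 2.71, 8.26 and 2.69 in the stably expanded group. It was lower by 3.04 on the log2 scale in the stably expanded than in the pre-malignant libraries (SE 0.59). Ebf1, the early B-cell factor that E-proteins activate, had 48.3, 27.9 and 15.7, then 10.3, 2.62 and 8.12, then 4.52, 1.84 and 2.69 normalized counts. In the same comparison it was lower by 2.89 (SE 0.61). The stably expanded libraries held only 2 to 9 reads of Pax5 and 2 to 5 of Ebf1, so these folds depend on the added 1. Irf8, a factor of monocyte, dendritic and B cells, had 4263, 5989 and 7606 normalized counts in the pre-malignant group, against 5343, 5850 and 873.0 in the de novo expanded and 1690, 3469 and 2002 in the stably expanded group. Stably expanded over pre-malignant, it was lower by 1.35 (SE 0.25, limma, adjusted p = 0.0126).

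**Figure D5:**
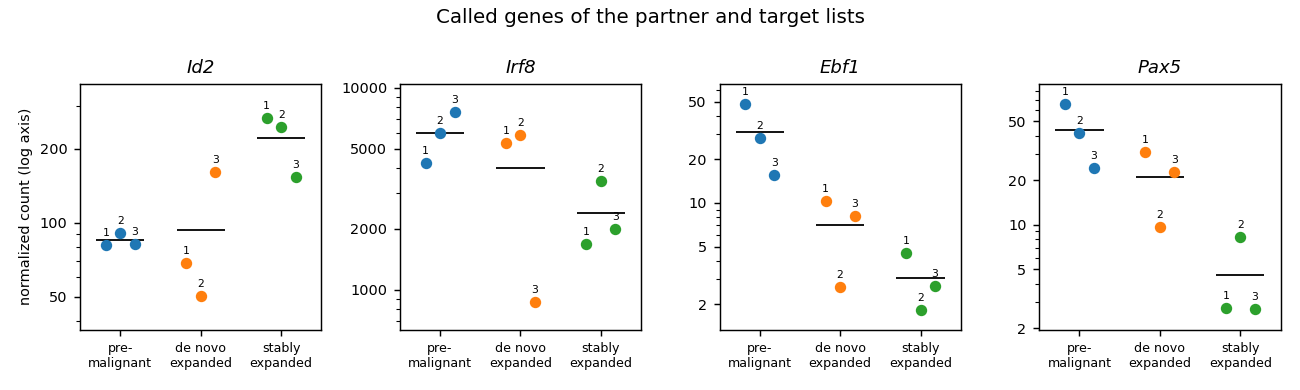
Normalized counts by library (log axis) of the 4 partner and target genes called stably expanded over pre-malignant, with points numbered by library within a group and a line at the group mean. Id2 is higher and Irf8, Ebf1 and Pax5 are lower in all stably expanded libraries than in all pre-malignant ones, and de novo expanded library 3 is the lowest of 9 for Irf8 (873.0). Ebf1 and Pax5 passed the filter on low values in that comparison only through the pre-malignant group, which favors a lower direction.

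Of these calls, only that of Id2 held with any 1 library left out. Without pre-malignant library 1, Id2 and Irf8 were called and Pax5 and Ebf1 were not, and without pre-malignant library 2 only Id2 was called. All 4 were called without pre-malignant library 3 and without any 1 stably expanded library. Without stably expanded library 2, the count of list genes called was 8. In 1 fit of all 9 libraries none of the 4 was called.

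Several markers of B cells were lower beside Bcl11a, Pax5 and Ebf1. Summed over the 8 genes of a B-cell list, Pax5 and Ebf1 among them, the level was 16.8 to 25.4 CPM (reads scaled to the library's total) in the pre-malignant, 7.52 to 14.9 in the de novo expanded and 12.2 to 20.6 in the stably expanded group. All 8 were above 3 reads in each pre-malignant library, and 4 to 6 of them were in the stably expanded libraries. Ms4a1, which encodes the B-cell surface protein CD20, had 27, 34 and 42 reads in the pre-malignant, 12, 4 and 8 in the de novo expanded and 8, 3 and 7 in the stably expanded samples. Cd79b went the other way, with 69 to 147 reads in the pre-malignant and 142 to 224 in the stably expanded libraries. The 8 markers of plasmacytoid dendritic cells summed to 2.40 to 3.85, 0.653 to 1.84 and 0.578 to 1.51 CPM. Their defining marker Siglech had 0, 2 and 7 reads before leukemia, 3, 0 and 0 in the de novo expanded and 0 in every stably expanded library, while Ccr9 of that list had 2, 1 and 3, then 4, 0 and 0, then 0, 7 and 5. The cells had been sorted for color code and CD45.1, and how many other cells remained was not tested. De novo expanded libraries 1 and 2 had 64 and 63 reads of Bcl11a with 12 and 4 of Ms4a1, while pre-malignant library 3 had 21 of Bcl11a with 42 of Ms4a1. Pax5 (62 reads) and Ebf1 (46 reads) were highest in pre-malignant library 1, and Ms4a1 too was highest in a pre-malignant library. These values are a description. The part of B cells and plasmacytoid dendritic cells in the lower Bcl11a, Pax5, Ebf1 and Irf8 was not tested.

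The summed T-cell markers overlapped between all groups. The 9 genes summed to 147 to 165, 115 to 175 and 120 to 162 CPM. Nearly all of it came from Thy1 (1215 to 2454 reads), part of whose protein is displayed by the color-code vectors, so the sum says little about T cells. Cd3e, of the T-cell receptor complex, had 4, 5 and 8 reads before leukemia. It had 0, 1 and 4 in the de novo expanded and 0, 4 and 0 in the stably expanded libraries. In the same order, Cd3d had 5, 4 and 6, then 2, 1 and 1, then 0, 4 and 0. Cd3g went otherwise, with 1, 11 and 6, then 11, 5 and 13, then 3, 2 and 5. Of the remaining lists, natural killer cell markers summed to 1.42 to 2.88, 0.584 to 0.784 and 0.0963 to 1.44 CPM. Erythroid markers summed to 19.2 to 35.5, 3.07 to 15.2 and 2.50 to 26.2. In both lists, every de novo expanded library lay below every pre-malignant one. Macrophage markers summed to 213 to 281, 107 to 255 and 204 to 258. Platelet markers summed to 62.3 to 65.5, 30.1 to 66.4 and 36.2 to 55.0, with every stably expanded library below every pre-malignant one.

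None of the chromatin partners was called in any comparison. Of all genes tested, 0%, 2.75% and 0.00727% were, in the order used above, so nothing is read from that count. Of 17 genes for NuRD, CtBP and Sin3 corepressors, which Ikaros proteins recruit, none was called, and 14 were above and 3 below 0 stably expanded over pre-malignant, with a median of 0.11. Chd4, the NuRD remodelling ATPase, had log2 differences of 0.16 ± 0.09, 0.17 ± 0.08 and 0.03 ± 0.10, in the order used above. Rbbp4, a histone-binding subunit, had 0.41 ± 0.09 stably expanded over pre-malignant (limma, adjusted p = 0.0224), below the 2-fold limit. Mbd2 (0.69 ± 0.10, limma, adjusted p = 0.00455), Rbbp7 (0.41 ± 0.10, adjusted p = 0.0375) and Hdac1 (0.46 ± 0.12, adjusted p = 0.0399) were likewise below it. These 3 were singled out after their values were seen. Of 12 BAF remodelling genes none was called and the median was 0.03, with -0.14 ± 0.08 for Arid1a and -0.13 ± 0.08 for Smarca4.

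Of 12 genes for E-protein partners, 10 were tested and none was called in any comparison. Stably expanded over pre-malignant, 2.75% of all genes tested were called, so nothing is read from that count. The median of the list was -0.28 there, beside 0.00 over all genes. The coactivators Ep300 and Crebbp, which E-proteins recruit, had -0.22 ± 0.08 (limma, adjusted p = 0.120) and -0.36 ± 0.08 (limma, adjusted p = 0.0299) in that comparison, both under 2-fold. Lmo4, a LIM-only adaptor, missed the fold limit most narrowly at 0.98 ± 0.14 (limma, adjusted p = 0.00464), and its relative Lmo2, which bridges E-protein complexes, had -0.33 ± 0.08 (adjusted p = 0.0348). Cbfa2t3 had -0.43 ± 0.10 (limma, adjusted p = 0.0273). Lmo4, Lmo2 and Cbfa2t3 were singled out after their values were seen.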

How the data were processed

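RNA from 9 sorted mouse leukemia samples was sequenced after a stranded total RNA library preparation. The authors trimmed reads with Trim Galore 0.6.4, aligned them with STAR 2.6.1d to GRCm38 and counted them on genes with featureCounts 1.6.4, per the labels and the methods of the study. Whether counting used strand is not given in the sources used here. The 3 tables deposited by the authors, 1 for each pair of groups, hold DESeq2-normalized counts, a signal per gene and library, beside the authors' own fold changes, errors, test statistics and p-values, which were not used.

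Dividing by each library's smallest step gave back whole reads (within 0.05 of a whole number) for at least 99.99% of values above 0, identical in both tables that hold a library. Rows with a gene ID but no gene name, 987 of 55401, held 0.741% of reads and were kept. Within each table, log2(normalized count + 1) of genes with a mean of at least 10 was tested between groups by limma 3.58.1 with Benjamini-Hochberg adjustment (R 4.3.3), with the spread moderated over all genes along a trend with the mean. A call needed an adjusted p under 0.05 and a fold change of at least 2. The procedure was tested on simulated data. For levels over 9 libraries, reads were divided by DESeq2 1.42.0 size factors computed over all 9, since the tables were normalized separately. Exact permutation of 3 against 3 libraries cannot reach a two-sided p below 0.1, so none was used.

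Alternatives were pseudocounts of 0.1 and 5, no filter, a mean of at least 50, quantile normalization, edgeR 4.0.16 and DESeq2 on the recovered reads, 1 fit of all 9 libraries, no fold limit, each library left out, and, added after seeing the data, scaling by CPM. Figures were drawn with matplotlib 3.10.9.

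The 8 members and all gene lists were chosen with earlier results of these data known. Named were all members, each list gene called in any comparison, or otherwise the 2 of a list with the highest mean, and the 3 genes nearest in pattern to the member with the largest difference between groups. Genes named outside this rule are Cbfa2t3, Flt3, Gfi1, Hdac1, Id1, Id3, Id4, Gm48722, Lmo2, Lmo4, Mbd2 and Rbbp7. So are the genes in and around Ikzf2, those nearest to it, and the markers. Promoters are from RefSeq (GRCm38.p6) and coding sequences from GENCODE on NCBIM37. The table of promoters matched 5 of the 8 members by symbol, and those of Ikzf2, Ikzf3 and Tcf4 were not used here. A marker gene, a sequence and a modification shared by all samples are not reported here.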

Additional observations from a re-analysis of the deposited data

How the results depend on the processing

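Of the 24 log2 differences (8 members in 3 comparisons), none reversed as a call. The sign of 1 changed under another setting, Tcf4 stably expanded over pre-malignant (0.01, then -0.03 at the lowest), and that of 11 with a library left out. By DESeq2, the difference of Ikzf2 went from -1.20 to -3.90 stably over de novo expanded and from -1.50 to -4.07 stably expanded over pre-malignant. No setting moved the median of all genes by over 0.1. De novo expanded over pre-malignant, genes called went from 0 to 5 with no filter, 42 by DESeq2 and 5 in 1 fit of all 9 libraries, and ranged from 0 to 214 with 1 library left out, where partner and target genes called ranged from 0 to 1. Stably expanded over pre-malignant, genes called went from 384 to 1110 with no fold limit and 6 in 1 fit of all 9 libraries, and ranged from 206 to 452 with 1 library left out. Partner and target genes called there went from 4 to 13 with no fold limit, 2 at a mean of at least 50 and 0 in 1 fit of all 9 libraries, and ranged from 1 to 8 with 1 library left out. Stably over de novo expanded, genes called went from 1 to 2 with no filter, 29 by DESeq2 and 2 in 1 fit of all 9 libraries, and ranged from 0 to 508 with 1 library left out, where partner and target genes called ranged from 0 to 5. The 508, 214, 5 and 1 were those without de novo expanded library 3. The 5 were Cd79b, Flt3, Gfi1, Id2 and Irf8, stably over de novo expanded, and the 1 was Flt3, de novo expanded over pre-malignant. With all libraries none of these was called in those comparisons. A lower limit on means leaves out Bcl11a, Pax5 and Ebf1 by construction at 50; the cause of the other moves was not tested. Depth limits Ikzf2, Bcl11a, Pax5 and Ebf1, which had 10 reads or fewer in several libraries. No paired analysis was made because the column names give no clone or mouse by which libraries of different groups could be paired.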
